A study of Saccharomyces cerevisiae with 27 samples.

Results

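The genes described here are 7 chaperone genes of the budding yeast Saccharomyces cerevisiae: the disaggregase genes HSP104 (YLL026W) and HSP78 (YDR258C), the small heat shock protein genes HSP26 (YBR072W) and HSP42 (YDR171W), the aggregate-sorting gene BTN2 (YGR142W), and the mitochondrial chaperonin genes HSP60 (YLR259C) and HSP10 (YOR020C). They were chosen by name from a table of RNA values for 5297 genes and a table of DRIP values for 5298 genes, and all 7 are in both tables. None of them was removed by the filter on low values.

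The samples were log-phase cells grown in rich medium at 30 °C, and every group, the control included, received rapamycin for 3 h before harvest. In the anchor-away system rapamycin ties an FRB-tagged protein to an anchor outside the nucleus, so that the nucleus loses it while the gene stays intact. The 4 genotypes were WT (labelled WT anchor away), hst34 (hst4-delta HST3-FRB), rrp6 (RRP6-FRB) and hst34rrp6 (hst4-delta HST3-FRB RRP6-FRB). Hst3 and Hst4 are sirtuins that remove acetyl groups from histone H3 at lysine 56. Rrp6, an exonuclease, belongs to the nuclear form of the RNA exosome. The labels name no further alleles of the strains, and they do not say whether the 2 libraries of a group came from separate cultures. A p-value here sets a difference against the spread of these libraries only, and that spread may be technical. RNA-seq covered all 4 genotypes, DRIP-seq had untreated libraries and libraries treated with 30 U of RNase H from WT and hst34, and Break-seq had libraries from the same genotypes, always with 2 per group. The 7 NET-seq samples were not analysed here.

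Proteins that misfold are held, pulled apart or refolded by these chaperones. Small heat shock proteins bind unfolding proteins and keep them in a form that can be recovered, and Btn2 collects such proteins in compact deposits. Hsp104, a ring-shaped ATPase of the cytosol and nucleus, threads proteins out of aggregates together with Hsp70, and Hsp78 does this in the mitochondrial matrix. Hsp60 forms the folding chamber of the matrix, and Hsp10 is its lid. In yeast most genes of this kind are activated by the heat shock factor Hsf1, and several also by the stress factors Msn2 and Msn4.

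Each RNA library held 5487526 to 10183415 reads in genes. The RNA signal is per kb of gene interval and scaled to S. pombe cells added 1:6 at harvest. In bulk samples fewer cells carrying a transcript and less RNA per cell cannot be told apart. HST4 (YDR191W), the deleted gene, gave 92.5 and 93.3 in the WT libraries and 91.5 and 100.3 in those of rrp6. It gave 9.69 and 0.726 (8 reads and 1 read) in those of hst34, and 3.34 and 0 (3 reads and 0 reads) in those of hst34rrp6, as labelled. HST3-FRB and RRP6-FRB act at the protein level, so RNA does not check them. The 2 libraries of a group differed by a shift that most genes shared: the median gene had a signal of 361 per kb in the first hst34 library and 263 in the second.

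In WT the members spanned a wide range of levels. HSP10 was highest, then HSP60, HSP104, HSP78, BTN2, HSP42 and HSP26. The WT libraries of BTN2 and HSP42 overlapped, so their order is not resolved, and the lower HSP42 value (116 per kb) nearly met the higher HSP26 value (115). HSP10 and HSP60 stood above 93.1% to 95.8% of genes per kb in WT, HSP104 above 72.6% to 76.5%, and HSP26 above only 14.3% to 16.4%.

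**Figure D1:**
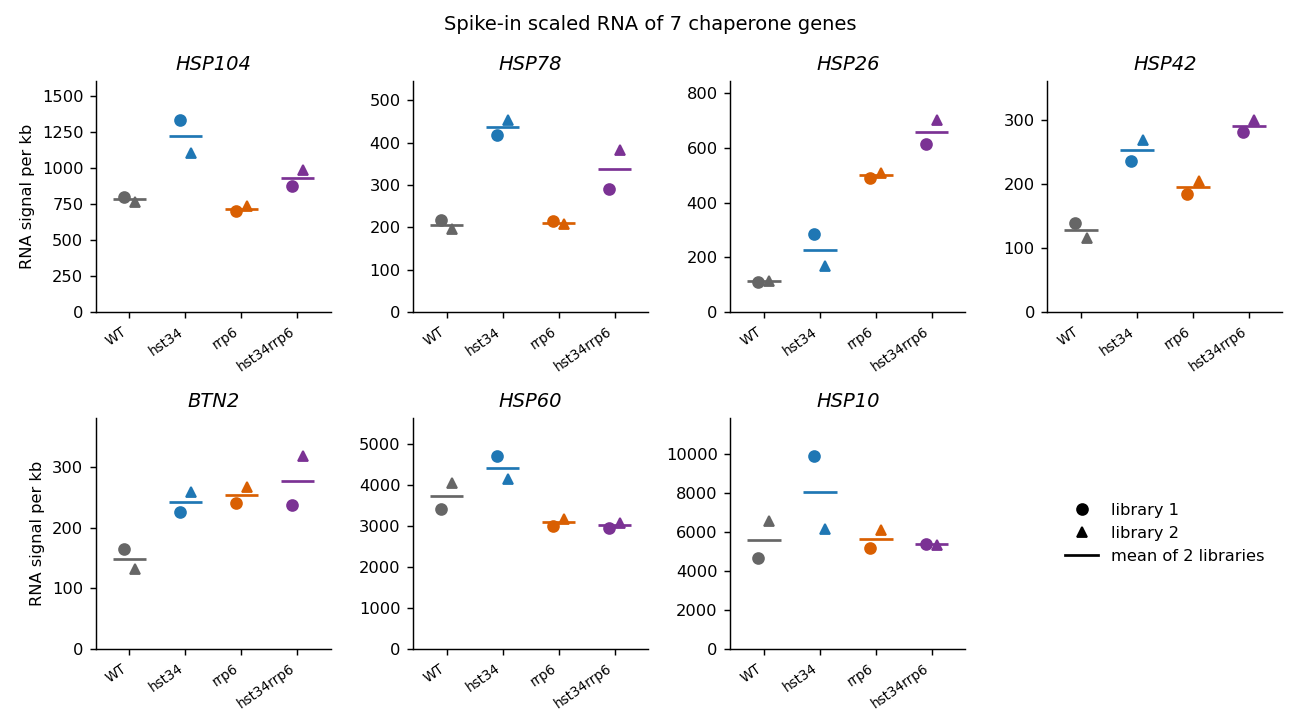
Spike-in scaled RNA signal per kb (vertical axes, linear from 0) of the 7 genes in the 8 RNA libraries, by genotype; circles and triangles are the 2 libraries of a group and lines their means. HSP26 lies between 491 and 705 in the 4 libraries with RRP6-FRB and between 111 and 288 in the other 4, whereas HSP78 and HSP104 are highest in hst34.

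The genes fell into different patterns across the genotypes. HSP26 was high wherever Rrp6 was depleted, at 4.43 times its WT mean in rrp6 and 5.84 times in hst34rrp6. HSP78 rose in hst34, to 2.11 times WT, and stood at 1.02 times in rrp6 and 1.63 times in hst34rrp6. HSP42 was at 1.98 times WT in hst34, 1.52 times in rrp6 and 2.28 times in hst34rrp6. It passed the test in hst34 and hst34rrp6. BTN2 was at 1.63 to 1.87 times WT in all 3 depleted genotypes, and passed the test in rrp6 and hst34rrp6. HSP60 and HSP10 passed the test in no comparison on the scale as deposited.

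Folds of means are ratios of the RNA signal itself. Tests were run with limma on log2(signal + 58.8) across all 5294 genes with signal above 0 in at least 2 libraries, with Benjamini-Hochberg adjustment at 0.05. The added 58.8, the 5th percentile of positive values, makes the log2 fold change of a low gene smaller than its fold of means. Each ± is a standard error with n = 2 libraries per group. On the RNA values as deposited limma pooled the spread over genes of like level, and the scatter of a gene's own libraries does not enter its p-value. With each library centred on its median gene it enters in part. Centring also takes out the spike-in scale. Centred values are therefore relative to the median gene of a library, and a change that most genes of a genotype share is lost.

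Each depleted genotype was first set against WT. In hst34 2 of 7 rose and none fell, where 0.661% of all tested genes rose. Both hst34 libraries lay above both WT libraries for 6 of 7 members, against 7.05% of all genes. The median log2 fold change was 0.60 for the members and -0.08 for all genes. In rrp6 2 of 7 rose, where 4.53% of all genes did, and the members' median was 0.03 against 0.00. In rrp6, 3 of 7 members lay above WT in both libraries (28.5% of all genes) and 2 of 7 lay below it (28.4%), shares near the background. In hst34rrp6 3 of 7 rose, where 10.2% of all genes did, with medians of 0.57 and 0.11. There 5 of 7 lay above WT in both libraries (39.3% of all genes) and 1 of 7 below (19.9%). These 3 comparisons share the WT libraries.

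**Figure D2:**
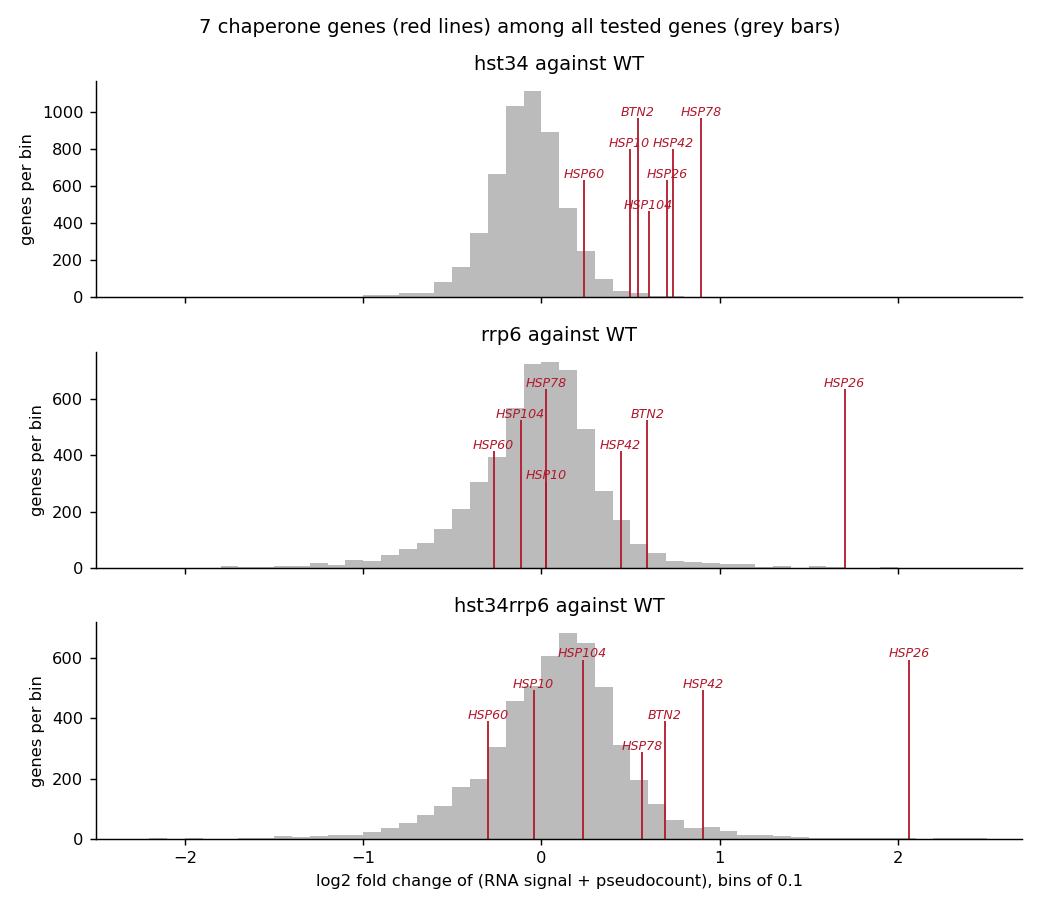
Distribution of log2 fold changes against WT over all 5294 tested genes (grey bars, genes per bin of 0.1) with the 7 members as red lines. In hst34 all 7 members lie above 0, from 0.24 for HSP60 to 0.90 for HSP78, whereas in rrp6 and hst34rrp6 they are spread from below 0 to HSP26 at 1.70 and 2.06; 8 genes lie beyond the axis in each of those 2 panels.

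HSP104, the cytosolic disaggregase (chromosome XII, 88449 to 91433, plus strand), gave an RNA signal per kb of 801 and 765 in the WT libraries, 1338 and 1109 in those of hst34, 702 and 735 in those of rrp6, and 876 and 986 in those of hst34rrp6. Both hst34 libraries were above all others, and both rrp6 libraries were below WT. The log2 fold change in hst34 was 0.60 ± 0.22 and did not pass (limma, adjusted p = 0.208), with a mean 1.56 times that of WT. Centring each library on its median gene removes the shift between libraries, and with it the spike-in scale. The log2 fold change in hst34 was then 0.70 with an adjusted p of 0.00154 (limma). As deposited, the log2 fold change was -0.12 in rrp6 and 0.23 in hst34rrp6, and neither passed.

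HSP78, its mitochondrial counterpart (chromosome IV, 971769 to 974305, minus strand), gave 217 and 197 in the WT libraries, 417 and 455 in those of hst34, 216 and 207 in those of rrp6, and 290.3 and 384 in those of hst34rrp6. The rrp6 libraries overlapped WT, whereas both hst34 libraries stood above every other library. HSP78 rose in hst34 by a log2 fold change of 0.90 ± 0.21 (limma, adjusted p = 0.00281), the largest of the 7. The call was lost without either WT library, with adjusted p of 0.0577 without WT 1 and 0.191 without WT 2, while the log2 fold change stayed at 0.95 and 0.84. Its log2 fold change was 0.03 in rrp6 and 0.57 ± 0.21 in hst34rrp6, where the adjusted p of 0.05002 just missed the threshold. The ratio of HSP104 to HSP78 per kb was 3.69 and 3.89 in the WT libraries, 3.21 and 2.44 in those of hst34, 3.25 and 3.55 in those of rrp6, and 3.02 and 2.57 in those of hst34rrp6. All 6 libraries of the depleted genotypes were below both WT libraries in this ratio. The nearest were 3.55 in rrp6 2 and 3.69 in WT 1, where HSP78 rests on 399 and 550 reads. Whether these 2 differ beyond counting error was not tested.

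HSP26, which encodes a small heat shock protein that forms large oligomers (chromosome II, 381943 to 382799, plus strand), was the member that changed most. Its signal per kb was 111 and 115 in the WT libraries, 288 and 167 in those of hst34, 491 and 509 in those of rrp6, and 615 and 705 in those of hst34rrp6. No group overlapped another. The WT values rest on 95 and 56 reads, those of hst34 on 174 and 169, those of rrp6 on 366 and 331, and those of hst34rrp6 on 405 and 344. The exact Poisson intervals at 95% of the WT libraries, which cover counting error only, were 89.8 to 136 and 86.9 to 149 per kb. HSP26 moved from the 16.4th and 14.3rd percentile of genes per kb in WT to the 65.5th and 62.7th in rrp6 and the 70.6th and 70.3rd in hst34rrp6.

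HSP26 rose by a log2 fold change of 1.70 ± 0.22 in rrp6 (limma, adjusted p = 4.12e-13) and by 2.06 ± 0.22 in hst34rrp6 (adjusted p = 3.78e-19). It also rose between hst34 and hst34rrp6, by 1.36 ± 0.22 (adjusted p = 2.19e-08; 2.90 times in means). In hst34 alone the mean was 2.01 times that of WT, and the log2 fold change of 0.70 ± 0.22 just missed the threshold (adjusted p = 0.0533). That value passed with a pseudocount of 1 (0.95, adjusted p = 0.0113), without the lowest 25% of genes (adjusted p = 0.0453) and with each library centred (0.81, adjusted p = 0.000741). It did not pass with the replicate block (adjusted p = 0.188), with the compared groups only (0.298), without WT 1 (0.494) or without WT 2 (0.503). Without the first hst34 library the log2 fold change was 0.40 (adjusted p = 0.206), and without the second 1.01 (adjusted p = 0.000347). The 2 hst34 libraries stood further apart than those of any other genotype, at 288 and 167 from almost equal read numbers.

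HSP42, the small heat shock protein that is also active in unstressed cells (chromosome IV, 806556 to 807828, plus strand), gave 139 and 116 in the WT libraries, 236 and 269 in those of hst34, 184 and 205 in those of rrp6, and 281 and 300.5 in those of hst34rrp6. Every library of a depleted genotype lay above both WT libraries. HSP42 rose in hst34 by 0.74 ± 0.20 (limma, adjusted p = 0.0184) and in hst34rrp6 by 0.91 ± 0.20 (adjusted p = 0.000161; 2.28 times in means). The rise in hst34rrp6 held in every alternative run, whereas the call in hst34 was lost without WT 1 (0.83, adjusted p = 0.13) or WT 2 (0.65, adjusted p = 0.586), and, at an equal fold change of 0.74, without rrp6 1 (0.0797) or rrp6 2 (0.0805). In rrp6 the mean was 1.52 times that of WT and the log2 fold change of 0.44 ± 0.20 did not pass (adjusted p = 0.161).

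The balance between members was also read within each library. The signal of HSP26 per kb was 0.798 and 0.991 times that of HSP42 in the WT libraries and 1.22 and 0.622 times in those of hst34. It was 2.67 and 2.48 times in rrp6 and 2.19 and 2.34 times in hst34rrp6, so all 4 libraries with RRP6-FRB were above the other 4. Against HSP104 the ratio of HSP26 was 0.139 and 0.15 in the WT libraries, 0.215 and 0.151 in those of hst34, 0.7 and 0.693 in those of rrp6, and 0.702 and 0.715 in those of hst34rrp6. A ratio within a library does not depend on the spike-in.

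**Figure D3:**
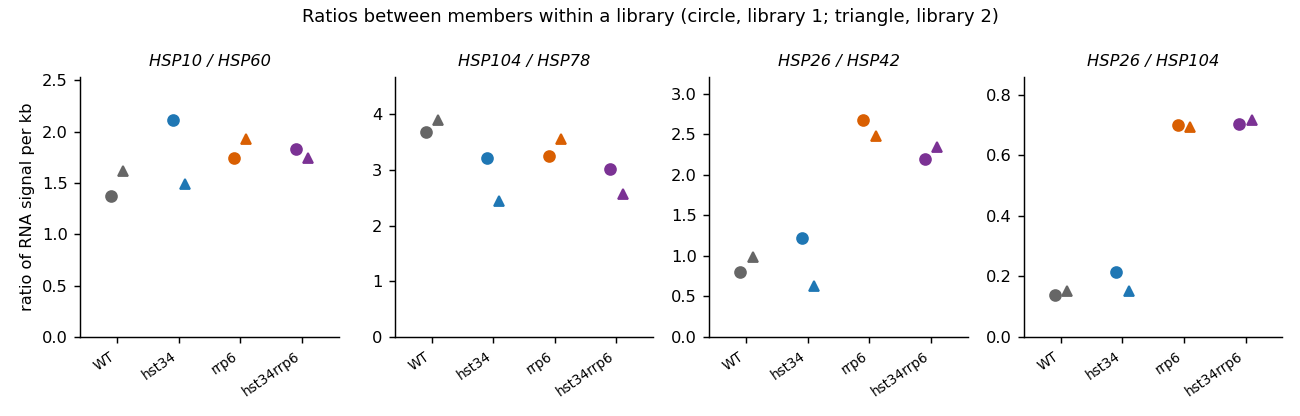
Ratios of RNA signal per kb between pairs of members within each of the 8 RNA libraries (vertical axes linear from 0; circle, library 1; triangle, library 2). HSP26 relative to HSP104 is 0.693 to 0.715 in the 4 libraries with RRP6-FRB and 0.139 to 0.215 in the other 4, while HSP10 relative to HSP60 is 1.37 and 1.62 in WT and 1.49 to 2.11 in the other 6 libraries.

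BTN2 (chromosome VII, 772331 to 773739, plus strand) gave 165 and 132 in the WT libraries, 226 and 258 in those of hst34, 241 and 267 in those of rrp6, and 237 and 318 in those of hst34rrp6. All 6 libraries of depleted genotypes were above WT, and those genotypes overlapped one another. BTN2 rose in rrp6 by 0.59 ± 0.21 (limma, adjusted p = 0.0379; 1.71 times in means) and in hst34rrp6 by 0.69 ± 0.21 (adjusted p = 0.00837; 1.87 times). In hst34 the log2 fold change of 0.54 ± 0.21 did not pass (adjusted p = 0.246). The rise in rrp6 lost its call without WT 1 (adjusted p = 0.081), WT 2 (0.47), rrp6 1 (0.226), rrp6 2 (0.411), hst34rrp6 1 (0.0691) or hst34rrp6 2 (0.0673). The rise in hst34rrp6 lost it without WT 2 (0.193) or hst34rrp6 2 (0.331).

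HSP60, the chaperonin (chromosome XII, 663101 to 665061, minus strand), gave 3418 and 4045 in the WT libraries, 4691 and 4139 in those of hst34, 2999 and 3160.1 in those of rrp6, and 2955 and 3066 in those of hst34rrp6. Both hst34 libraries were above WT and all 4 libraries with RRP6-FRB were below it. For hst34, rrp6 and hst34rrp6 the log2 fold changes were 0.24 ± 0.22, -0.27 ± 0.22 and -0.30 ± 0.22, and none passed (limma, adjusted p = 0.923, 0.537 and 0.385). With each library centred, HSP60 was lower in rrp6 (-0.29, adjusted p = 0.0413; 0.054 with the replicate block added) and in hst34rrp6 (-0.43, adjusted p = 0.00537). Its interval shares 60 bp, 3.06% of its length, with that of GSY2 on the opposite strand, and the sources used here do not say whether counting used the strand.

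HSP10, the lid of the chaperonin (chromosome XV, 370438 to 370894, minus strand), gave 4679.8 and 6550.5 in the WT libraries, 9904 and 6187 in those of hst34, 5211 and 6101 in those of rrp6, and 5394 and 5344 in those of hst34rrp6. Only the first hst34 library stood apart, and every genotype overlapped WT. For hst34, rrp6 and hst34rrp6 the log2 fold changes were 0.50 ± 0.21, 0.03 and -0.04, with adjusted p of 0.376, 0.97 and 0.917 (limma). With each library centred, HSP10 was higher in hst34 (0.60, adjusted p = 0.0184), where its libraries stood at the 97.3rd and 96.7th percentile of genes per kb against the 94.8th and 95.8th in WT. As deposited, the log2 fold change in hst34 was 0.16 without the first hst34 library, 0.83 without the second (adjusted p = 0.000841) and 0.25 without WT 1. Relative to HSP60 per kb, HSP10 was at 1.37 and 1.62 in the WT libraries, 2.11 and 1.49 in those of hst34, 1.74 and 1.93 in those of rrp6, and 1.83 and 1.74 in those of hst34rrp6.

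Centring each library on its median gene added 0.10 to every log2 fold change of hst34 against WT and lowered those of hst34rrp6 by 0.13 against WT, 0.11 against rrp6 and 0.23 against hst34. With it 6 of 7 members were higher in hst34 than in WT (all but HSP60), where 3.48% of all genes were. In rrp6 the same 2 members were higher (12.6% of all genes) and HSP60 was lower (20.7%). In hst34rrp6 4 members, HSP78, HSP26, HSP42 and BTN2, were higher (15.2%), and HSP60 was lower (23.6%).

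**Figure D4:**
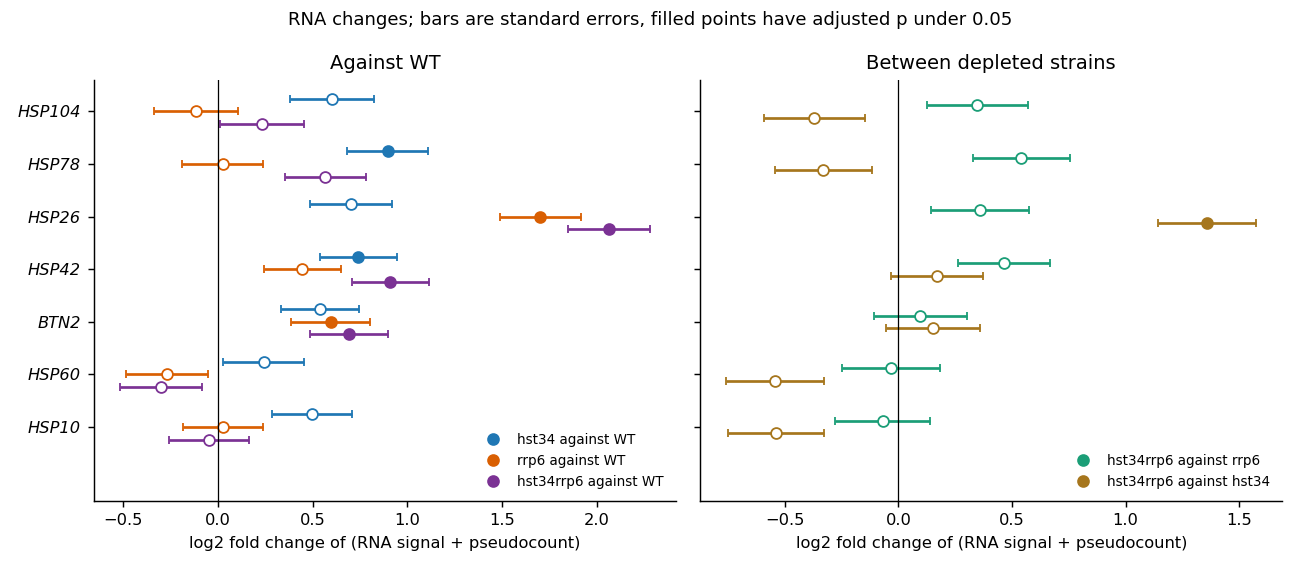
Log2 fold changes of RNA (signal + pseudocount) for the 7 genes, against WT on the left and between depleted genotypes on the right; bars are standard errors from limma (n = 2 libraries per group) and filled points have an adjusted p under 0.05. Of the points on the right, only HSP26 in hst34rrp6 against hst34, at 1.36, is filled.

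Adding Rrp6 depletion to hst34 split the members. Between hst34rrp6 and hst34, HSP26 rose and none of the other 6 passed, where 13.5% of all genes rose and 3.38% fell. HSP60 and HSP10 were at 0.68 and 0.67 times their hst34 means, with log2 fold changes of -0.54 ± 0.22 and -0.54 ± 0.21 (limma, adjusted p = 0.0636 and 0.0574). Without the first hst34 library these were -0.45 (adjusted p = 0.0486) and -0.20 (0.375), and without the second -0.63 (0.0103) and -0.88 (5.15e-05). HSP104 and HSP78 were at 0.76 and 0.77 times, with -0.37 and -0.33. Both hst34rrp6 libraries lay below both hst34 libraries for these 4 members (11.5% of all genes) and above them for HSP26 and HSP42, 2 of 7 (36.9%). HSP42 and BTN2 differed by 0.17 and 0.15. With each library centred, the 4 disaggregase and chaperonin genes were lower (24.7% of all genes) and HSP26 was higher (14.4%). The members' median was -0.33 on the scale as deposited, against 0.17 over all genes.

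Adding the loss of Hst3 and Hst4 to rrp6 gave 0 of 7 calls by limma, where 1.04% of all genes were called. Among all genes 395 had an unadjusted p under 0.05. Both hst34rrp6 libraries were above both rrp6 libraries for HSP104, HSP78, HSP26 and HSP42, 4 of 7 (31.8% of all genes). Of these HSP78 had the largest log2 fold change, 0.54 ± 0.21 (adjusted p = 0.313; 1.59 times in means), and it passed when only those 4 libraries were fitted (adjusted p = 0.0473). BTN2, HSP60 and HSP10 differed by 0.10, -0.03 and -0.07. The members' median was 0.35 and that of all genes 0.10.

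The difference between the effect of hst34 in the presence and in the absence of nuclear Rrp6 was tested as an interaction. It was below 0 for all 7 members, from -0.25 to -0.57, and passed for 0 of 7, where 1.19% of all genes passed and 304 of 5294 had an unadjusted p under 0.05. HSP10 was lowest at -0.57 ± 0.30 (limma, adjusted p = 0.90). It passed only without the second hst34 library (-0.90, adjusted p = 0.0181), and it was -0.23 without the first and -0.33 without WT 1. The members' median was -0.34 and that of all genes 0.17. The 7 values stood between the 0.283rd and 2.29th percentile of all genes. With each library centred they were -0.46 to -0.77, and none passed (limma, lowest adjusted p = 0.0594, for HSP10). For no single member was the effect of hst34 thus shown to differ between cells with and without nuclear Rrp6. The 7 as a set were not tested.

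Across the 8 RNA libraries, on log2 values centred per library, the 21 pairs of members had Pearson r from -0.683 to 0.941, with a median of 0.543. Of these pairs 12 were above 0.5 and 4 below 0. HSP104 and HSP78 were most alike (0.941), then HSP42 and BTN2 (0.898), HSP10 and HSP60 (0.821), and HSP42 and HSP78 (0.819), while HSP26 and HSP60 went most opposite ways (-0.683). These are descriptions over 8 libraries that fall into 4 genotypes. Among 2647 genes above the median level, the 2 most like HSP104 were GPI10 (0.972) and the J-protein gene SIS1 (0.960), and for HSP78 the Hsp90 gene HSP82 (0.957) and HSP104 (0.941). For HSP26 they were HRP1 (0.983) and GDS1 (0.976), for HSP42 TVS1 (0.925) and the proteasome regulator gene RPN4 (0.924), and for BTN2 PEX8 (0.958) and NTE1 (0.936). For HSP60 they were the Hsp70 genes SSA2 (0.986) and KAR2 (0.984), and for HSP10 MRPL7 (0.960) and ARD1 (0.953).

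Genes of the wider chaperone network were counted by list, and the number called depends on the scale. On the scale as deposited 0.661% of all genes rose in hst34. There 2 of 12 genes of the cytosolic Hsp70 system rose, SSA1 by 0.97 ± 0.22 and SIS1 by 0.73 ± 0.22 (limma, adjusted p = 0.0486). Of 12 genes of the Hsp90 system 1 rose, HSP82 by 1.52 ± 0.22. Of 9 genes for aggregate sorting and protein turnover 1 rose, the coactivator gene MBF1 by 0.78 ± 0.22. None of 20 other genes for mitochondrial folding and quality control passed, with a median of 0.00, and none of 8 genes of the cytosolic chaperonin, with a median of -0.28. The medians of the Hsp70, Hsp90 and sorting lists were 0.10, 0.27 and 0.12, beside -0.08 over all genes. SSA1 and HSP82 have close paralogs, so reads could be placed on either copy. With each library centred 4 of the Hsp70 list, 6 of the Hsp90 list and 2 of the sorting list were higher in hst34. None was lower, where 3.48% of all genes were higher and 4.04% lower. The mitochondrial and cytosolic chaperonin lists again had no calls.

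In rrp6, as deposited, the Hsp70 system, the mitochondrial list and the cytosolic chaperonin had no calls, where 4.53% of all genes rose and 6.63% fell. The Hsp90 co-chaperone gene TAH1 rose by 0.64 ± 0.22 (limma, adjusted p = 0.0392) and MBF1 by 0.67 ± 0.22, and the peroxiredoxin gene TSA1 fell by 0.65 on the log2 scale. The medians in rrp6 ran from 0.04 for the Hsp70 list to 0.25 for the Hsp90 list. With centring, 2 genes of the Hsp70 list and 5 of the Hsp90 list were higher in rrp6 and none lower. There 1 mitochondrial gene was higher and 2 lower, and 2 sorting genes were higher and 1 lower. Over all genes 12.6% were higher and 20.7% lower. On the deposited scale in hst34rrp6, where 10.2% of all genes rose and 5.70% fell, SSA3 of the Hsp70 system rose by 0.79 ± 0.19. TAH1 rose by 1.14, HSP82 by 0.81 and AHA1, an activator of the Hsp90 ATPase, by 0.65 in the Hsp90 system, and MBF1 rose by 0.88. The cyclophilin gene CPR3 was the 1 mitochondrial gene of 20 that passed, and it fell by 0.61. None of the 8 cytosolic chaperonin genes passed in hst34rrp6 against WT. There the medians were 0.14 for the Hsp70 list, 0.32 for Hsp90, 0.35 for sorting, 0.20 for the mitochondrial list and 0.04 for the chaperonin, beside 0.11 over all genes. With centring the numbers higher and lower in hst34rrp6 were 1 and 2 for the Hsp70 list and 5 and 1 for Hsp90. They were 3 and 1 for sorting, 2 and 3 for the mitochondrial list, and 0 and 1 for the chaperonin. The chaperonin median turned to -0.09, and over all genes 15.2% were higher and 23.6% lower.

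Of the comparisons between depleted genotypes, hst34rrp6 against rrp6 had no calls in these 5 lists, as deposited or with centring. As deposited 1.04% of all genes were called there, and with centring 49 of 5294 rose and 14 fell. Against hst34, as deposited, SSA3 was higher by 0.94 while SSA1 and SSA2 were lower by log2 fold changes of -0.84 and -0.75. TAH1 and CNS1 were higher by 0.96 and 0.63, and HSP82 was lower (-0.71). In the mitochondrial list MCX1 was higher by 0.69 and CPR3 lower (-0.64). Over all genes 13.5% rose and 3.38% fell against hst34 as deposited. With centring 5 genes of the Hsp70 list, 4 of Hsp90 and 5 of the mitochondrial list were lower than in hst34. So were 1 of the chaperonin and 2 of sorting, and in this order 1, 2, 1, 1 and 0 were higher. Over all genes 24.7% were lower and 14.4% higher. On the scale as deposited HSP82 was the 1 gene of all the lists with a called interaction, -1.13 ± 0.31 (limma, adjusted p = 0.0295). On that scale 1.19% of all genes had a called interaction. With centring 10 genes of the lists had one, where 1.87% of all genes did: 3 of the Hsp70 list, 2 of Hsp90, 2 of sorting and 2 of the general stress genes below 0, and the regulator MSN4 above 0 (0.75, adjusted p = 0.00531).

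Of 3 regulators of heat shock and stress genes, as deposited, MSN4 fell in rrp6, where 6.63% of all genes fell, and no other call was made. HSF1 had a signal per kb of 170 and 192 in the WT libraries, 217 and 165 in those of hst34, 195 and 223 in those of rrp6, and 251 and 307 in those of hst34rrp6, with log2 fold changes of 0.05, 0.16 and 0.49 against WT, none called (limma, adjusted p = 0.996, 0.748 and 0.0814). MSN2 differed from WT by 0.07, 0.06 and 0.18, none called. MSN4 fell in rrp6 by 0.74 on the log2 scale (standard error 0.22, adjusted p = 0.0108), from 583 and 703 in WT to 334 and 389. In hst34 and hst34rrp6 its log2 fold changes of -0.60 and -0.38 did not pass. With centring MSN4 was lower in all 3, at -0.50 in hst34 (limma, adjusted p = 0.00412), -0.76 in rrp6 (3.31e-05) and -0.51 in hst34rrp6 (0.000482). Over all genes 4.04%, 20.7% and 23.6% were lower, in the same order. HSF1 was then higher in hst34rrp6 (0.36, adjusted p = 0.00484), where 15.2% of all genes were.

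General stress genes were read beside the members because several members also respond to Msn2 and Msn4. Of 20 such genes, as deposited, GPD1 (0.88) and DDR2 (0.78) rose in hst34, and the glycogen phosphorylase gene GPH1 fell in rrp6 by 0.79 on the log2 scale. In hst34rrp6, DDR2 (1.12), SPI1 (0.88), TFS1 (0.77) and YGP1 (0.77) rose, and GPH1 fell by 0.75. DDR2 was the only one of them called between hst34rrp6 and rrp6, at 0.93. Between hst34rrp6 and hst34, SPI1 (1.16) and TFS1 (0.71) were higher, and GPD1 (-0.996), HXK1 (-0.70), GPH1 (-0.57) and GSY2 (-0.57) were lower. Over all genes 0.661% rose in hst34, 6.63% fell in rrp6, and 10.2% rose and 5.70% fell in hst34rrp6 against WT. Between hst34rrp6 and rrp6 1.04% of all genes were called, and against hst34 13.5% rose and 3.38% fell. The medians of the general stress list were 0.22 in hst34, -0.14 in rrp6 and 0.01 in hst34rrp6 against WT. With centring hst34 had 3 higher and none lower, where 3.48% of all genes were higher and 4.04% lower. In rrp6 3 were higher (12.6% of all genes) and 7 lower (20.7%). In hst34rrp6 4 were higher (15.2%) and 5 lower (23.6%), with a median of -0.12. Against hst34, 2 were higher and 11 lower in hst34rrp6, where 14.4% of all genes were higher and 24.7% lower. YGP1, HXK1, GSY2 and the values of GPH1 in hst34rrp6 were named after their values were seen.

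The genes next to HSP26 did not move with it. The nearest listed gene upstream, YBR071W at 568 bp, had a log2 fold change of -0.33 ± 0.22 in rrp6, and the nearest downstream, the recombination gene RDH54 at 336 bp, had 0.06 ± 0.22, and neither passed (limma, adjusted p = 0.422 and 0.935). Of the 14 neighbours of the 7 members, looked up after the members' values were seen, 2 were called against WT. Over all genes 4.53% rose and 6.63% fell in rrp6, and 10.2% rose and 5.70% fell in hst34rrp6. SKN1, downstream of BTN2, fell in rrp6 by 0.64 on the log2 scale (adjusted p = 0.0311), the direction opposite to BTN2, and PAU17, downstream of HSP104, rose in hst34rrp6 by 0.44 ± 0.13 (adjusted p = 0.00999).

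DRIP-seq recovers DNA bound by the S9.6 antibody, which recognises RNA-DNA hybrids. Libraries treated with RNase H, which degrades the RNA of hybrids, are meant as its background. The deposited signal was not clearly lower in them. Between libraries of the same number, the median gene with RNase H was at 1.13 and 0.997 times untreated in WT and 1.32 and 1.26 times in hst34. How much of a gene's signal came from hybrids was not tested. The 7 members gave 0 of 7 calls in each of the 4 comparisons: hst34 against WT (0.00% of 5298 genes called by limma), RNase H in WT (0.00%), RNase H in hst34 (0.00%), and hst34 against WT after RNase H (0.00%). Over all genes 140, 0, 541 and 212 had an unadjusted p under 0.05. Deviations of WT and WT RNaseH libraries of the same number correlated at 0.94, and the main fit did not pair them. With no gene under 0.05 even before adjustment, the 0 of 7 for RNase H in WT cannot show that the members were unchanged. Libraries held 935412 to 2951246 reads in genes, except WT 2 with 83303106. In WT 2, 24.2% of genes were more than 5 times below their value in WT 1, and in WT RNaseH 2 25.2% were as far below WT RNaseH 1, against 0.0944% and 0.227% in the corresponding hst34 pairs.

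HSP26, HSP42, HSP60 and HSP10 were among the genes low in those 2 libraries. HSP60 had a deposited DRIP signal of 121 and 9.10 in untreated WT, 114 and 4.56 after RNase H, 172 and 134 in untreated hst34, and 122 and 123 after RNase H. HSP26 had 33.7 and 1.15 in untreated WT, 44.7 and 2.28 after RNase H, 37.2 and 13.1 in untreated hst34, and 76.2 and 59.5 after RNase H. Its second library was thus the lower one in every group, by far the most in WT. In the same order HSP42 had 30.6 and 1.45, 46.4 and 1.71, 46.0 and 34.7, and 67.8 and 35.3. In the same order HSP10 had 34.3 and 6.56, 85.3 and 5.13, 43.8 and 53.1, and 55.7 and 83.7. WT 2 was at 0.0751 times WT 1 for HSP60, 0.0342 times for HSP26, 0.0475 times for HSP42 and 0.191 times for HSP10.

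HSP104 and HSP78 differed from them in that all 8 libraries agreed within a factor of 2. HSP104 had 583 and 581 in untreated WT, 438 and 604 after RNase H, 643 and 621 in untreated hst34, and 592 and 624 after RNase H, and stood between the 74.4th and 93.5th percentile of DRIP signal per kb. In the same order HSP78 had 402 and 395, 385 and 433, 326 and 305, and 413 and 296. BTN2, between these groups of genes, had 172 and 107, 265 and 99.2, 209 and 132, and 137 and 53.0.

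In hst34 against WT without RNase H, 4 of 7 members (HSP104, HSP42, HSP60 and HSP10) were above WT in both libraries (10.7% of all genes) and HSP78 was below it (23.7%). HSP42, HSP60 and HSP10 are among the genes low in WT 2. The log2 fold changes were 1.61 ± 1.08 for HSP60, 1.10 ± 0.91 for HSP42, 1.02 ± 0.91 for HSP10, 0.51 ± 0.92 for HSP26, 0.27 ± 0.59 for BTN2, 0.12 ± 0.24 for HSP104 and -0.33 ± 0.24 for HSP78. The first 5 of these moved with WT 2: without it they were 0.30 for HSP60, 0.28 for HSP42, 0.38 for HSP10, -0.37 for HSP26 and -0.04 for BTN2. Without WT 1 they were 2.92, 1.91, 1.67, 1.38 and 0.58 in the same order, and without hst34 1 HSP26 was at 0.03 and BTN2 at -0.04. None of these was called. In hst34 the log2 fold change with RNase H was 1.16 for HSP26, -0.85 for BTN2 and between -0.28 and 0.41 for the other 5. The median over all genes was 0.34. Both RNase H libraries lay below both untreated hst34 libraries for HSP60, 1 of 7 (13.3% of all genes), and above them for HSP26 and HSP10, 2 of 7 (49.5%). In WT the RNase H and untreated libraries overlapped for all 7. Between libraries of the same number, HSP60 with RNase H was at 0.939 and 0.501 times untreated in WT and 0.712 and 0.916 times in hst34. HSP26 was at 1.33 and 1.98 times in WT and 2.05 and 4.55 times in hst34. HSP42 was also above 1 in every such pair, and the others went both ways. In WT RNaseH 2, HSP60, HSP26 and HSP42 had 8, 4 and 3 reads, and the labels do not say that a number marks a pair.

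With WT 2 and WT RNaseH 2 left out, a choice made after seeing the data, 1 library is left in each WT group and is assumed to vary like the others. For hst34 against WT without RNase H, HSP60, HSP42, HSP10, HSP26 and BTN2 then had the values given above without WT 2. The log2 fold changes with RNase H in hst34 were 1.16 for HSP26 and -0.85 for BTN2, as with all libraries. For hst34 against WT after RNase H, BTN2 was at -1.49, and at -0.83 with all libraries. With all libraries the others were 1.54 for HSP60, 1.46 for HSP26, 1.10 for HSP42, 0.96 for HSP10, 0.23 for HSP104 and -0.22 for HSP78. With the 2 libraries left out these were 0.10, 0.48, 0.07, -0.27, 0.46 and -0.135, in the same order.

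**Figure D5:**
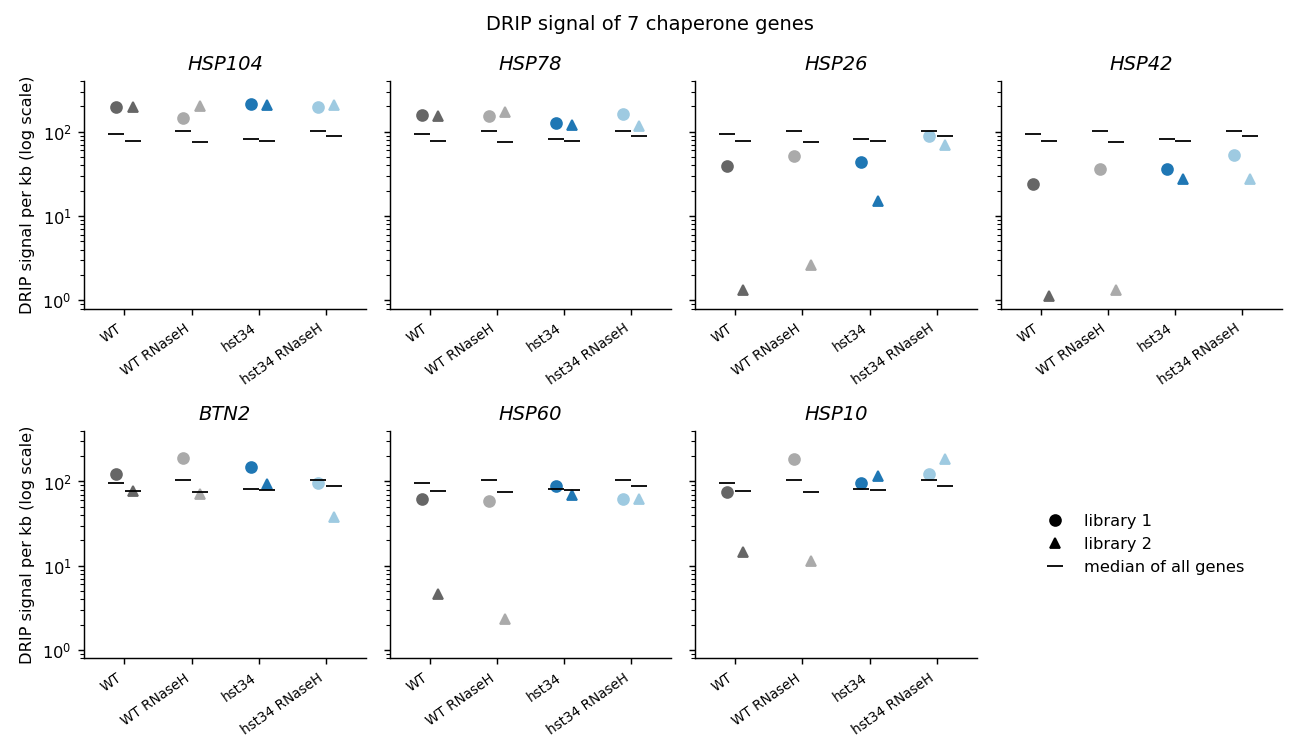
DRIP signal per kb (vertical axes, log scale) of the 7 genes in the 8 DRIP libraries; circles and triangles are the 2 libraries of a group and short lines the median of all genes in each library. HSP104 stays between 147 and 216 in every library, whereas HSP26, HSP42, HSP60 and HSP10 drop to between 1.14 and 14.4 in the second library of both WT groups.

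Break-seq labels DNA ends to find breaks, and the deposited list holds 239 peaks made for hst34 against WT. Of the 7 members only HSP78 overlaps peaks, and 10.2% of all 5298 intervals do. It holds 481 bp of a peak on chromosome IV from 962751 to 972250 and 749 bp of a peak from 973001 to 973750, which lies within the gene. The Break-seq signal of the first was 913 and 867 in WT and 1447 and 1727 in hst34, and that of the second 79.6 and 61.3 in WT and 115 and 144 in hst34. The ratios of hst34 to WT, 1.78 and 1.84, lie near the median of 1.71 over all peaks, whose range was 1.22 to 3.74, and the list holds peaks chosen for that comparison. HSP10 lies 688 bp from a peak with a ratio of 1.71, and the other 5 members lie 13923 bp or further from any peak.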

How the data were processed

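The members, the gene lists and the tests were chosen with earlier results of these data known. Per the submitters' processing notes, reads were handled with Bowtie2, TopHat2, SAMtools, HTSeq 0.9.1 and bedtools on the build sacCer3; the sources used here do not give the role of each or the use of strand. The deposited RNA values are a signal, scaled by the authors to spiked S. pombe cells and to interval length. The deposited DRIP and Break-seq signals are reads times 1 constant per library, not per length. The value of 1 read was inferred from the steps of the values, since the files do not state it; divided by it, 100% of values in all 3 tables came out whole, within 0.01. Read numbers are thus estimates, used for depth and counting intervals only.

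The design allowed for count tests if the tables held counts; they hold scaled values, so limma 3.58.1 (R 4.3.3) with a trend was used on log2(value + pseudocount). The pseudocount, 58.8 for RNA and 12.5 for DRIP, is the 5th percentile of values above 0. It was fitted with the 8 libraries of a table in 1 two-sided fit. The median residual SD of RNA was 0.18 log2 units, and 0.097 with each library centred. All 7 members, the 3 regulators, up to 3 called genes per list, 2 like genes per member and HST4 are named by rule. The fit was also run on simulated counts without shifts between libraries, with changes only in genes above the median level. That run does not show how the fit behaves with shared shifts, with library pairs as unlike as those of WT in DRIP, or for low genes. Coordinates are as the deposited tables give them.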

Additional observations from a re-analysis of the deposited data

How the results depend on the processing

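HSP26 kept its calls in rrp6 and hst34rrp6 against WT and in hst34rrp6 against hst34, and HSP42 its call in hst34rrp6 against WT, under every alternative run. Over 1059 member values under alternatives, 998 stayed on their side of the threshold, 18 lost a call, 43 gained one and none reversed, and 41 values that were never called changed sign. In hst34 against WT 2 members were called, and 6 with each library centred. The count was 1 with the replicate block, 6 with the block and centring, and 0 when only the groups compared were fitted. Over all 5294 genes 35, 184, 19, 154 and 11 rose, in the same order. In rrp6 against WT 2 were called, 1 with the replicate block, 3 with the compared groups only (HSP42 added, adjusted p = 0.0193) and 3 with centring (HSP60 added, adjusted p = 0.0413, but 0.054 with the block and centring). Over all genes 240 rose in rrp6, 173 with the block, 434 with the compared groups only and 667 with centring, where 1096 fell. In hst34rrp6 against WT 3 members were called, and 5 with centring, without or with the block. Over all genes 541 rose and 302 fell there, 803 and 1248 with centring, and 746 and 1208 with the block added. Between hst34rrp6 and rrp6 0 members were called, and 1 with the compared groups only, where 150 of all genes rose and 20 fell. Between hst34rrp6 and hst34 1 member was called, and 5 with centring, without or with the block. Over all genes 716 rose and 179 fell there, 760 and 1308 with centring, and 721 and 1259 with the block added. In DRIP, RNase H in hst34 gave 0 members, and 1 with the compared groups only, where 843 of 5298 genes rose and 218 fell. Calls without WT 2 and WT RNaseH 2 rest on 1 library in each WT group and are not listed here. Leaving out 1 library at a time gave 0 to 5 members in hst34 against WT (0 without either WT library, 5 without hst34 2), 1 to 3 in rrp6, 2 to 4 in hst34rrp6, 1 to 3 in hst34rrp6 against hst34, and 0 to 1 for the interaction. The number of all genes called also changed between these fits, so a change in the members' count is not particular to them. With centring the median residual SD of RNA was 0.097 against 0.18.

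The labels give libraries of different groups the same number without saying that it marks a shared culture or day. Deviations of same-numbered libraries correlated at -0.197 to 0.113 in RNA and 0.123 to 0.94 in DRIP, most between WT and WT RNaseH. Since the labels do not settle pairing, the block results stand as an alternative only. In DRIP the replicate block without centring called no gene in any comparison. The replicate block lost HSP42 in hst34 (adjusted p = 0.0836) and BTN2 in rrp6 (adjusted p = 0.101). The alternatives with edgeR and DESeq2 were not run, since the tables hold scaled values and not counts. HSP26, HSP42 and HSP10 fell under the filter on the lowest 25% of DRIP values and have no value there. Depth was lowest for HSP26 in RNA, with 56 reads in WT 2, and in DRIP for HSP42 and HSP26, with 3 and 4 reads in WT RNaseH 2.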
